A study of Sus scrofa with 40 samples.

Results

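The complement genes followed here were C3, C5, C1QA, C1QB, C1S, CFB, CFD, CD59 and the lectin FCN2, in pig kidneys exposed to warm ischemia and cold storage. Array rows were taken by gene symbol, either as the gene name of a non-control spot or in brackets in its description, which gave 18 of 43803 spots, with 18 of 43603 distinct probes and 11 of 35955 identifiers, for the 9 genes of 7213 with a symbol on the array. All 11 identifiers were well above background on all 40 arrays, and 0 were saturated on any of them, so no member was lost to a filter on low signal.

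The 40 samples were biopsies of renal cortex (C) or of the corticomedullary junction (CMJ) of Large White pigs aged 3 months, with 5 samples in each of 8 groups and 15 kidneys in all. In the control groups (Ctl-C, Ctl-CMJ) kidneys were biopsied as soon as they had been taken out, without ischemia. In the warm ischemia groups (WI-C, WI-CMJ) the vessels stayed clamped for 60 min at 37 °C before the biopsy. The cold storage groups (WI+CS6h-C, WI+CS24h-C, WI+CS6h-CMJ, WI+CS24h-CMJ) had the same 60 min of warm ischemia and were then rinsed through with University of Wisconsin solution, a cold preservation fluid, and kept at 4 °C. The same 5 cold-stored kidneys were sampled at 6 h and again at 24 h, no kidney was stored cold without prior warm ischemia, and none was reperfused, so no blood returned to the tissue before sampling.

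Complement is a cascade of plasma and membrane proteins that tags cells and microbes for removal. C1q, bound to antibodies or damaged surfaces, starts the classical pathway, ficolins and other lectins bound to sugars start the lectin pathway, and factors B and D drive the alternative pathway; all of them meet at C3, after which C5 opens the terminal pathway that ends in a pore in the membrane. Much of plasma complement comes from the liver, while tubular cells, macrophages and fibroblasts of the kidney make some components themselves, and complement is known as a mediator of injury when ischemic kidneys are reperfused.

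Each identifier was read through 60-base probes: 5 for C3, 2 each for C5, C1S and FCN2, and 1 each for C1QA, CFB and CFD. C1QB and CD59 had 2 identifiers with 1 probe each. The array files give no genome position for these probes. In the RefSeq gene table of the pig assembly Sscrofa11.1, C1QC lies between C1QA and C1QB, C2 lies next to CFB and C1R next to C1S, so the members come in part from shared gene clusters. A few probes are printed because the results below turn on whether probes of a gene say the same thing. The 2 C3 probes share a run of 39 bases, given in capitals, so that their signals are not independent readings; the other pairs of probes of a C3, C5, C1S or FCN2 transcript shared at most 7 bases in a row. The C1QB and FCN2 probes have no capitals.
C3, A_72_P737664: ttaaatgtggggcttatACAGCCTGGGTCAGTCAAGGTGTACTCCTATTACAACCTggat
C3, A_72_P742730: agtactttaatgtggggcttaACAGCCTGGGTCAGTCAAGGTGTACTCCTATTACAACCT
C1QB, A_72_P442926: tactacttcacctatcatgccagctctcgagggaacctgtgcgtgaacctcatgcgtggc
FCN2, A_72_P514653: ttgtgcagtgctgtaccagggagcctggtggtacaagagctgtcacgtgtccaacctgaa
The other FCN2 probe, A_72_P302619, and the CFD probe hold the polyadenylation signal letters AATAAA, searched on the probe strand only, which 9.6% of all 43603 probes hold.

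Between 57.01% and 69.91% of the spots of an array were well above background. Markers of proximal tubule were well above background on every array for the 6 of 8 that had an identifier, as were those of loop, distal tubule and collecting duct for 5 of 7. The loop transporter SLC12A1 was called higher in CMJ than in cortex in control and in WI samples. The highest correlation between any 2 arrays was 0.9948. The 4 cold-stored samples numbered 5 (both times, both tissues) stood apart from the rest: for 1637 of 35669 identifiers, 4.59%, all 4 of them lay above the other 16 cold-stored samples, against 2 to 26 identifiers for the samples of any other number. Where leaving them out changed a call, the value without them is given beside the result, a choice made after the data were seen.

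Levels below are log2 of the background-subtracted intensity after quantile normalization of all arrays. An identifier was called when limma gave an adjusted p under 0.05 (Benjamini-Hochberg over all identifiers of the comparison) and a log2 difference of at least 0.5. The p-values measure the spread between these samples.

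Among the 108 pairs of 9 genes and 12 comparisons within a tissue, 7 were called, 6 of them FCN2 higher and 1 CFD lower, and 36 of 108 had an unadjusted p under 0.05, against 12.9% of all identifiers over the same comparisons, several of which share arrays. In cortex, limma called 0 of 9 genes in WI-C versus Ctl-C, where 0.0946% of 35939 identifiers were called, and 0 of 9 had an unadjusted p under 0.05 (4.89% of all identifiers). It called 1 of 9 in WI+CS6h-C versus Ctl-C (4.02% of all identifiers), 1 of 9 in WI+CS24h-C versus Ctl-C (2.5%), 1 of 9 in WI+CS6h-C versus WI-C (1.93%) and 1 of 9 in WI+CS24h-C versus WI-C (1.2%), which was FCN2 each time. In CMJ it called 0 of 9 in WI-CMJ versus Ctl-CMJ (0.687% of 35938 identifiers), with 2 of 9 at an unadjusted p under 0.05 (12.3%). It called 1 of 9 in WI+CS6h-CMJ versus Ctl-CMJ (3.19%) and 1 of 9 in WI+CS24h-CMJ versus Ctl-CMJ (3.65%), again FCN2. Against WI-CMJ it called 1 of 9, CFD, at 6 h (2.78%) and 0 of 9 at 24 h (2.85%), with 5 of 9 at an unadjusted p under 0.05 there (16.4%). The median log2 difference of the 9 genes, each read by its identifier of highest mean, lay between -0.29 and 0.19 over the 12 comparisons. That of all identifiers lay between -0.01 and 0.05. A single call among 9 genes is no result about the family, so the calls are described gene by gene.

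**Figure D1:**
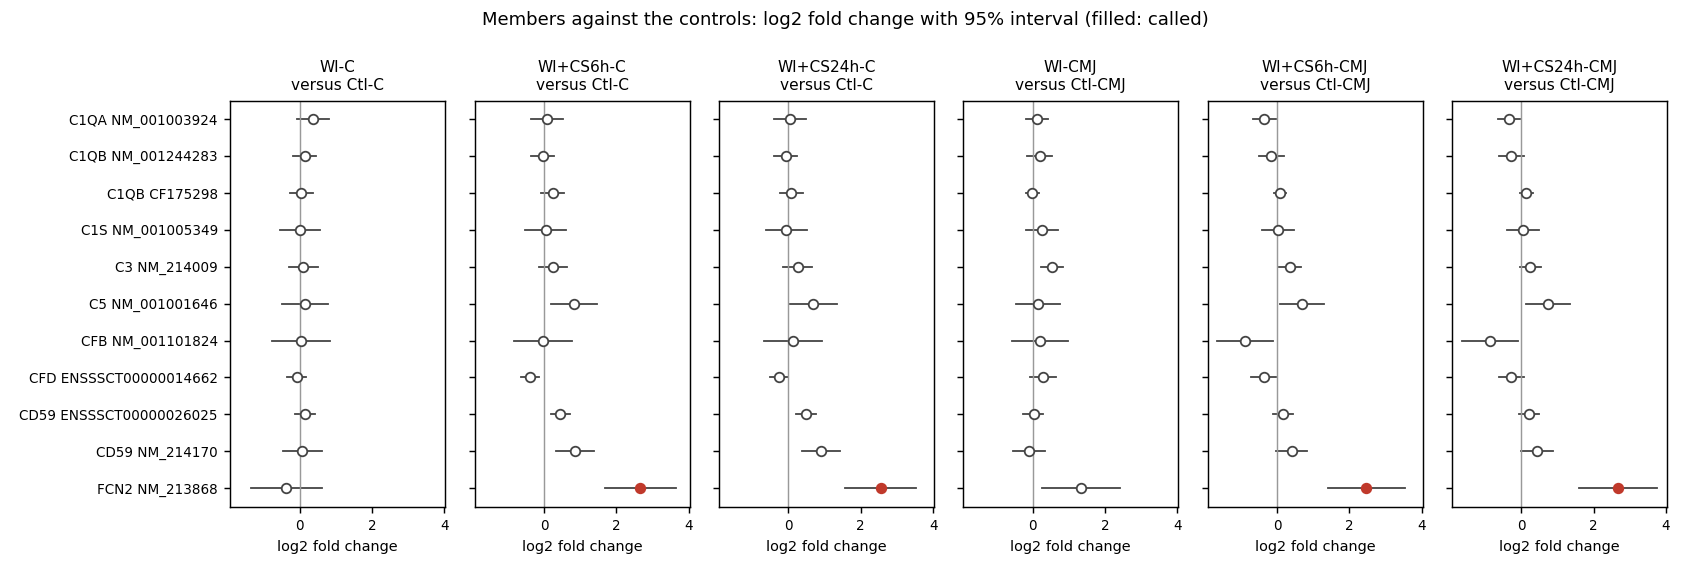
Log2 fold change (x axis) of each of the 11 identifiers against the control group of its tissue, with its 95% confidence interval from limma, in 6 panels, 1 for each ischemic group; filled red points were called. FCN2 stands at 2.47 to 2.67 in the 4 cold-stored panels and the other identifiers stay between -0.88 and 0.90 in them.

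The clearest difference among the members was in FCN2 (NM_213868), a soluble lectin that binds acetylated sugars and can start the lectin pathway. FCN2 rose after cold storage in both tissues against the controls. On its brighter probe, A_72_P302619, which was well above background on every array, the rise was 3.68-fold at 6 h and 3.74-fold at 24 h in cortex, and 5.03-fold and 5.57-fold in CMJ (limma adjusted p = 0.00289, 0.0031, 0.00494 and 0.00286 over all probes). The identifier values that follow average this probe with a dimmer one that was not well above background in some control and WI samples. Their differences changed with how the signal was processed. Of the marker lists of cell types, few genes were called in the same 4 comparisons with controls. These were LPL, 1 of 6 adipocyte markers, higher in cortex at 6 h (1.06, adjusted p = 0.0482), KDR, 1 of 5 endothelial markers, higher in CMJ at 6 h (0.59, adjusted p = 0.0138) and at 24 h (0.65, adjusted p = 0.00595), and among tubule markers SCNN1G in 3 of the 4 and SLC22A8 in 1, all higher. The neutrophil markers, with 4 of 6 measured, also had higher values in the cold-stored groups, with median differences from control of 0.94 and 1.29 (cortex, at 6 h and 24 h) and 0.86 and 1.08 (CMJ), and 0 of 4 were called in each. Of these 4, 2 were well above background on no Ctl-C array and 3 on no Ctl-CMJ array, so the size of these differences is uncertain. For S100A12, the cold-stored samples numbered 5 read 10.51 to 11.20 against 2.17 to 6.30 in the other cold-stored samples. The part of these cell types in the FCN2 values was not tested. In bulk tissue, fewer cells of a type and less RNA per cell cannot be told apart, here and for each result below. In cortex, the 5 controls read 4.34, 3.90, 4.04, 4.02 and 3.38 (3.94 ± 0.35, SD, n = 5). The WI-C samples read 4.28, 3.32, 2.88, 4.29 and 3.05 (3.56 ± 0.68, n = 5). The WI+CS6h-C samples read 6.03, 5.32, 6.52, 6.55 and 8.57 (6.60 ± 1.21, n = 5). The cold-stored samples lay above every control and every WI-C sample, and the same was true at 24 h, where the WI+CS24h-C samples read 6.26, 5.85, 6.07, 6.95 and 7.30 (6.49 ± 0.61, n = 5). Over all identifiers, 2.61% and 2.77% had all arrays of the first group above the controls in these 2 comparisons with Ctl-C, and 1.93% and 1.91% had them above WI-C.

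By limma, FCN2 rose by 2.66 on the log2 scale (SE 0.47, adjusted p = 0.0033) in cortex stored for 6 h against Ctl-C and by 2.55 (adjusted p = 0.00518) in cortex stored for 24 h. Against WI-C, which shares the cold-stored arrays with these comparisons, it rose by 3.03 at 6 h (adjusted p = 0.00217) and by 2.92 at 24 h (adjusted p = 0.00309). On the brighter probe alone, the differences from WI-C were 1.97 (3.92-fold) and 1.99 (3.99-fold), both with an adjusted p of 0.00297. WI-C itself differed from Ctl-C by -0.37 (95% interval -1.36 to 0.61, adjusted p = 1). The size of these differences changed with the processing. With the deposited log2 values, which keep the background and rest on the median signal, the difference of WI+CS6h-C from Ctl-C was 1.25 (adjusted p = 0.00426). With normexp background correction it was 0.67 (adjusted p = 0.037). With normexp correction the other 3 cortex differences of FCN2 were 0.54 to 0.65 and no longer called, with adjusted p between 0.06 and 0.163. The arrays were scanned on 2 days. Within day 1 and day 2 alone, with 2 or 3 arrays a group, FCN2 differed from Ctl-C by 2.1 and 3.03 at 6 h and by 2.16 and 2.92 at 24 h, none of them called in these small fits (adjusted p 0.097 to 0.6). With scan day as a term in the fit of all arrays, the 4 cortex differences were 2.54 to 3.04 and all were called. All 4 were called in each fit that left out 1 array of the groups compared, at 2.17 to 3.35.

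In CMJ, the controls read 4.21, 3.96, 4.55, 4.11 and 4.15 (4.19 ± 0.22, n = 5), and the WI+CS6h-CMJ samples 5.98, 5.88, 6.79, 6.99 and 7.68 (6.66 ± 0.75, n = 5). The WI+CS24h-CMJ samples read 6.43, 6.42, 7.14, 6.88 and 7.47 (6.87 ± 0.46, n = 5). Both cold-stored groups lay wholly above the controls, as 2.68% of all identifiers did at 6 h and 2.22% at 24 h. FCN2 rose by 2.47 (SE 0.51, limma adjusted p = 0.0084) at 6 h and by 2.67 (adjusted p = 0.00424) at 24 h. Within scan day 1 and day 2 the differences were 2.43 and 2.49 at 6 h and 2.66 and 2.57 at 24 h, called on day 2 (adjusted p = 0.00847 and 0.0148) and not on day 1 (adjusted p = 0.614 and 0.422).

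Warm ischemia alone gave a split picture for FCN2 in CMJ. The WI-CMJ samples read 5.94, 3.18, 6.58, 5.22 and 6.73 (5.53 ± 1.44, n = 5), so that 4 of 5 lay above all controls and sample 2 below all of them. The mean difference of 1.34 (SE 0.51) was not called (adjusted p = 0.261). Without WI-CMJ sample 2 it was 1.92 and called (adjusted p = 0.0221). Within scan day 1 it was 0.43 and within scan day 2 it was 2.56, the latter called (adjusted p = 0.0145). The cold-stored CMJ samples exceeded WI-CMJ by 1.13 at 6 h (adjusted p = 0.265) and 1.34 at 24 h (adjusted p = 0.173), which were not called, and on the brighter probe by 0.38 (adjusted p = 0.722) and 0.53 (adjusted p = 0.619). Within scan day 1 the identifier differences were 2 and 2.23 and within scan day 2 -0.07 and 0.01. WI-CMJ exceeded WI-C by 1.97 (SE 0.50), which missed the threshold (adjusted p = 0.0535) and was called without the cold-stored samples numbered 5 (adjusted p = 0.0164), with outlier spots kept (adjusted p = 0.0254) or without WI-CMJ sample 2 (2.55, adjusted p = 0.0019). This difference was uncalled under 7 of 16 alternatives and called under the others, among them the number, the slide or the kidney as a block. The difference between tissues in the effect of warm ischemia was 1.71 (SE 0.71, unadjusted p = 0.0214), with an adjusted p of 1.

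The FCN2 probes differed on WI-CMJ. Probe A_72_P302619 read 5.34, 5.19, 5.55, 4.84 and 5.40 in Ctl-CMJ and 7.44, 5.72, 7.94, 6.39 and 8.59 in WI-CMJ, groups that did not overlap (1.49% of all identifiers lay above in this way). Fitted over all probes, it rose by 1.95 in WI-CMJ versus Ctl-CMJ (SE 0.45, 3.86-fold, limma adjusted p = 0.0437) and by 1.81 in WI-CMJ versus WI-C (adjusted p = 0.0167). Probe A_72_P514653 differed by 0.72 in WI-CMJ versus Ctl-CMJ (SE 0.62, adjusted p = 0.704). It read 0.64 in WI-CMJ sample 2 and was well above background on 2 of 5 arrays in Ctl-C, 2 of 5 in WI-C, 4 of 5 in Ctl-CMJ and 4 of 5 in WI-CMJ, and on all arrays of the cold-stored groups. The first probe rose in all 4 cold-stored groups against the controls, by 1.88 and 1.90 (cortex, at 6 h and 24 h) and by 2.33 and 2.48 (CMJ). The fitted differences of the second were 2.76, 3.19, 2.61 and 2.87, each with an adjusted p under the threshold, but they are set against control groups in which it was well above background on 2 of 5 (cortex) and 4 of 5 (CMJ) arrays, so that their size is uncertain. One spot of the second probe, on the array of WI+CS6h-C sample 5, was marked as an outlier and left out; with it kept, that sample read 7.21 in place of 8.57 and the difference from Ctl-C was 2.39.

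**Figure D2:**
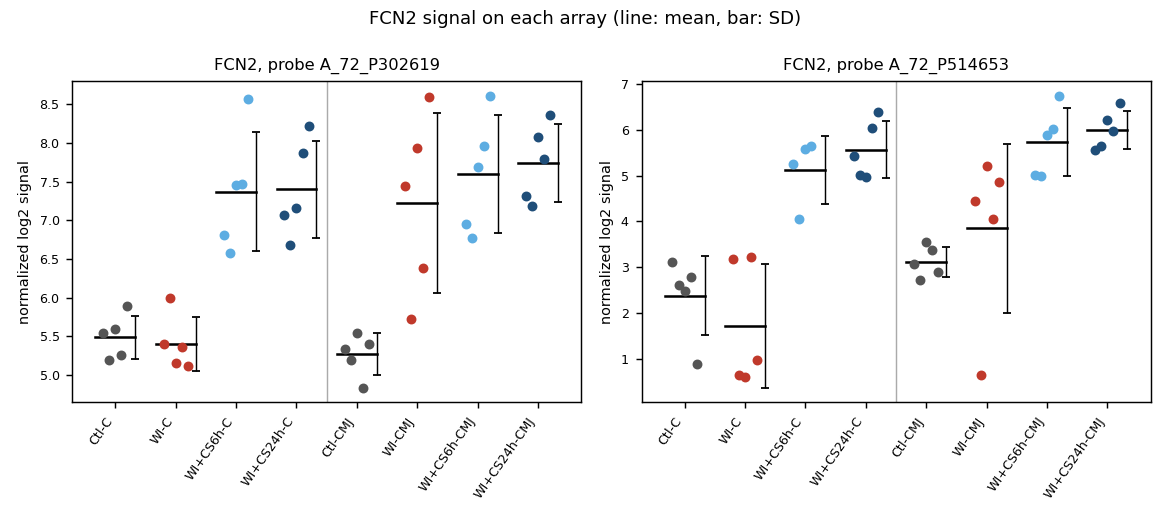
Normalized log2 signal (y axis) of the 2 FCN2 probes on each array, by group (x axis), with 1 point per array, a horizontal line at the group mean and a bar of 1 SD to each side; 1 spot marked as an outlier is missing from the right panel. Both probes are high in the 4 cold-stored groups, and WI-CMJ spreads from 5.72 to 8.59 on the left and from 0.64 to 5.22 on the right.

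The order of the group means of the FCN2 identifier was WI-C (3.56), Ctl-C (3.94), Ctl-CMJ (4.19), WI-CMJ (5.53), WI+CS24h-C (6.49), WI+CS6h-C (6.60), WI+CS6h-CMJ (6.66) and WI+CS24h-CMJ (6.87). Of the 7 neighbouring pairs, 6 were compared and none was called on the identifier, among them WI+CS6h-C and WI+CS6h-CMJ (0.07, 95% interval -0.95 to 1.08), but Ctl-CMJ and WI-CMJ, 1.34 apart, were called on the brighter probe. The order among the controls and WI-C, and within the cold-stored groups, is not settled. On the brighter probe it was Ctl-CMJ (5.27), WI-C (5.40), Ctl-C (5.49), WI-CMJ (7.22), WI+CS6h-C (7.37), WI+CS24h-C (7.40), WI+CS6h-CMJ (7.60) and WI+CS24h-CMJ (7.74), and with the outlier spot kept the identifier mean of WI+CS6h-C was 6.33, below that of WI+CS24h-C. Over the 8 identifier means, the patterns most like that of FCN2 among 6128 candidate identifiers with a symbol were those of POSTN, a matrix protein (Pearson r = 0.992), ENTPD1, an enzyme that splits extracellular ATP (r = 0.99), and TBX3, a transcription factor (r = 0.99). These are 8 points that share arrays and normalization. The group means of POSTN ranged from 6.91 to 7.79, those of ENTPD1 from 6.30 to 7.20 and those of TBX3 from 5.92 to 6.63, each lowest in WI-C and highest in WI+CS24h-CMJ.

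Factor D (CFD, ENSSSCT00000014662), the protease that cleaves factor B and is abundant in fat cells, fell after 6 h of cold storage in CMJ against warm ischemia. The WI-CMJ samples read 11.15, 11.09, 11.38, 10.98 and 11.74 (11.27 ± 0.30, n = 5) and the WI+CS6h-CMJ samples 10.44, 10.35, 10.85, 11.01 and 10.44 (10.62 ± 0.29, n = 5). All cold-stored samples lay below the WI-CMJ mean, and 1 of them lay above the lowest WI-CMJ sample. CFD fell by 0.65 on the log2 scale (SE 0.17, 1.57-fold, limma adjusted p = 0.0349). At 24 h the difference was -0.56 (adjusted p = 0.0717), and it was called at the same size with the filter on dim identifiers (adjusted p = 0.0463), with the slide as a block (adjusted p = 0.0398) or with scan day as a term (adjusted p = 0.045), and without WI+CS24h-CMJ sample 3 (-0.66, adjusted p = 0.0385). The call at 6 h was lost with quantiles within each group (-0.54, adjusted p = 0.0528), with the share of spots above background as a covariate (-0.62, adjusted p = 0.0995) and in a fit of the 2 groups alone (adjusted p = 0.0875). It was also lost in 5 of 10 fits that left out 1 array of these groups, with values from -0.75 to -0.53. These were the fits without WI-CMJ sample 3 (-0.62, adjusted p = 0.0868) or 5 (-0.53, adjusted p = 0.104), and without WI+CS6h-CMJ sample 1 (-0.61, adjusted p = 0.0878), 2 (-0.58, adjusted p = 0.0916) or 5 (-0.61, adjusted p = 0.0743). Within scan days 1 and 2 the difference was -0.68 and -0.79, not called on either (adjusted p = 0.533 and 0.0601).

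In cortex the CFD differences were smaller than 0.5: -0.38 in WI+CS6h-C versus Ctl-C (adjusted p = 0.0772), where all 5 cold-stored samples lay below all controls (2.62% of all identifiers did so), and -0.26 at 24 h (adjusted p = 0.299). In CMJ the CFD mean was 10.99 in Ctl-CMJ, 10.62 at 6 h and 10.71 at 24 h of storage, and neither cold-stored group was called against Ctl-CMJ. At 6 h that difference was -0.65 to -0.19 over the alternatives (limma adjusted p 0.185 to 0.689). CFD in WI-CMJ exceeded WI-C by 0.57 (adjusted p = 0.0594) and Ctl-CMJ by 0.28 (adjusted p = 0.555). The former was called without WI-C sample 3 (0.64, adjusted p = 0.0325), without WI-CMJ sample 4 (0.64, adjusted p = 0.0394) or without the cold-stored samples numbered 5 (0.57, adjusted p = 0.024). It was also called with quantiles within each group, normexp correction, the deposited values, the filter on dim identifiers, and the number or the kidney as a block. A row outside the selection, TC621752, which the array describes as a complement factor D precursor, shares a run of 52 bases with the CFD probe. Against WI-CMJ it differed by -0.66 at 6 h (adjusted p = 0.0189) and by -0.58 at 24 h (adjusted p = 0.0375), and because of the shared bases it is not a separate reading. The patterns most like that of CFD over the 8 group means were those of SRD5A2, a steroid reductase (r = 0.986), IGFBP7, a binding protein of growth factors (r = 0.981), and PPP1R14A, an inhibitor of myosin phosphatase (r = 0.978); all 3 were lowest in WI+CS6h-C and highest in WI-CMJ.

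The adipocyte marker ADIPOQ read 3.31, 1.90, 3.88, 2.21 and 4.49 in the 5 WI-CMJ samples, while the other CMJ groups ranged from 1.58 to 2.34. Samples 1, 3 and 5 of WI-CMJ were thus high for ADIPOQ, and they were the highest of that group for FCN2 and for CFD. The collagen gene COL1A2 followed the same samples, with 10.72, 10.18, 11.37, 9.61 and 11.93, and was called higher in WI-CMJ than in WI-C. The summed signal of the 6 adipocyte markers, on the log2 scale, ranged from 9.28 to 10.01 in WI-CMJ and from 9.03 to 9.68 in Ctl-CMJ, and that of the 4 of 6 fibroblast markers with an identifier from 11.41 to 12.91 and from 11.13 to 12.14. Among the adipocyte markers, PLIN1 was well above background on 1 of 40 arrays. The part of adipose or connective tissue in the FCN2 and CFD values of WI-CMJ was not tested. In the cold-stored CMJ samples ADIPOQ was between 1.79 and 2.34, and in the cold-stored cortex samples it was between 1.71 and 3.00, against 1.62 to 1.98 in Ctl-C.

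Factor B (CFB, NM_001101824), which supplies the catalytic part of the alternative pathway's convertase, was higher in CMJ than in cortex after warm ischemia. The WI-CMJ samples read 9.27, 8.84, 8.84, 9.36 and 8.72 (9 ± 0.29, n = 5) and the WI-C samples 7.38, 7.27, 7.97, 7.30 and 7.12 (7.41 ± 0.33, n = 5), with no overlap (1.98% of all identifiers). CFB was higher in WI-CMJ by 1.59 (SE 0.38, 3.02-fold, limma adjusted p = 0.0335). It was the 1 gene of 9 called in WI-CMJ versus WI-C, where 0.671% of 35934 identifiers were called. The controls showed nearly the same difference: the Ctl-CMJ samples read 9.11, 8.69, 8.90, 8.22 and 9.15 and the Ctl-C samples 7.33, 7.35, 7.25, 7.08 and 7.87, with no overlap (1.14% of all identifiers), and the difference of 1.44 (SE 0.38, 2.71-fold) had an adjusted p of 0.103. In the cold-stored samples the tissues overlapped, with differences of 0.58 at 6 h (adjusted p = 0.594) and 0.46 at 24 h (adjusted p = 0.987). The spread in this fit is shared with the cold-stored samples, whose SDs were 0.74 to 0.85. Without the 4 cold-stored samples numbered 5 the adjusted p was 0.000537 in controls and 0.000166 after warm ischemia, at the same differences. The control difference was also called with the kidney as a block and in a fit of the 2 groups alone. Leaving out 1 array of the WI groups gave 1.51 to 1.74, with the call kept without WI-C sample 3 (adjusted p = 0.0275) or WI-CMJ sample 2 (adjusted p = 0.0423) and lost in the other 8 of 10 fits (adjusted p up to 0.1). Within scan days 1 and 2 the WI difference was 1.6 and 1.58, not called on either (adjusted p = 0.815 and 0.47).

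In the cold-stored CMJ samples, 4 of 5 CFB values at each time lay below all control and WI-CMJ values, and sample 5 lay among or near them. The WI+CS6h-CMJ samples read 7.34, 7.26, 7.79, 7.95 and 9.34 (7.94 ± 0.84, n = 5), and the WI+CS24h-CMJ samples 7.69, 7.59, 8.19, 7.18 and 9.11 (7.95 ± 0.74, n = 5). The differences from Ctl-CMJ were -0.88 (adjusted p = 0.228) and -0.86 (adjusted p = 0.217), and those from WI-CMJ -1.07 (adjusted p = 0.123) and -1.05 (adjusted p = 0.129), none of them called. Without the samples numbered 5, all 4 were called, at -1.23 (adjusted p = 0.00473) and -1.15 (adjusted p = 0.00666) against Ctl-CMJ and at -1.42 (adjusted p = 0.00209) and -1.34 (adjusted p = 0.00303) against WI-CMJ. In cortex, CFB differed by at most 0.14 in the 6 comparisons of groups, but sample 5 read 8.74 at 6 h and 8.93 at 24 h against 6.68 to 7.43 in the other cold-stored cortex samples. Without it the differences from Ctl-C were -0.37 (adjusted p = 0.381) and -0.24 (adjusted p = 0.552), and those from WI-C -0.40 (adjusted p = 0.397) and -0.27 (adjusted p = 0.631), none of them called. The test of a difference between tissues gave -1.14 for WI+CS24h versus WI (SE 0.54, unadjusted p = 0.0416, adjusted p = 1).

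**Figure D3:**
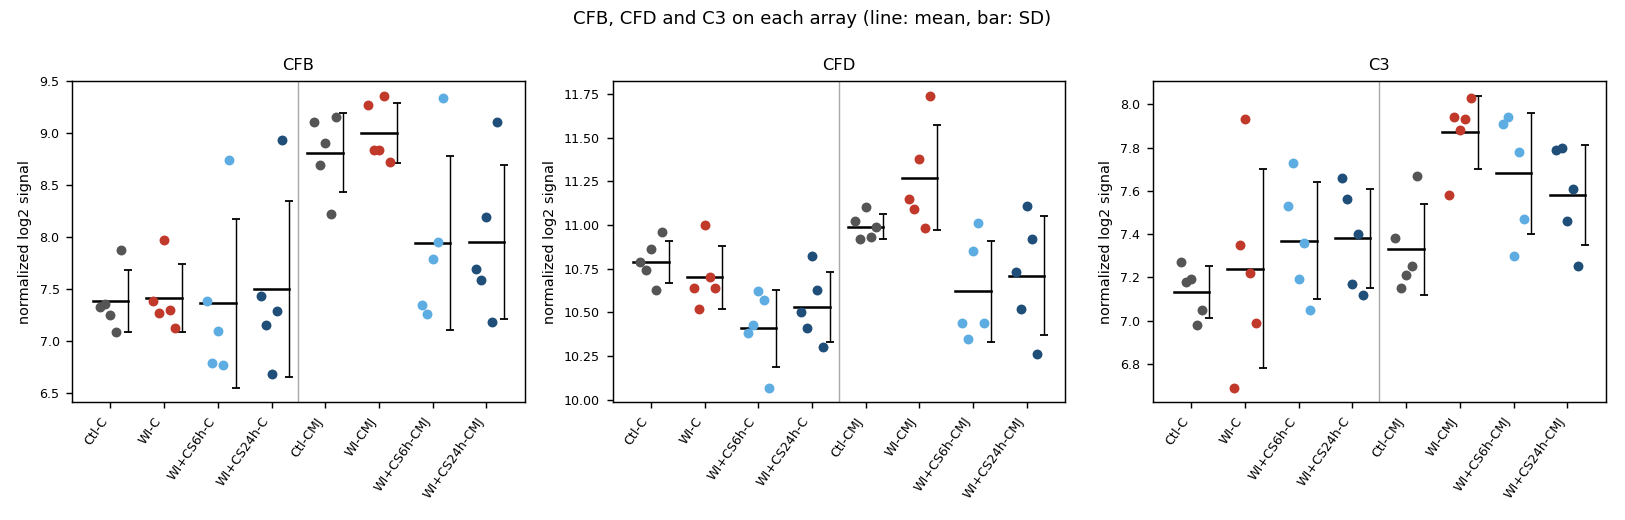
Normalized log2 signal (y axis) of CFB, CFD and C3 on each array, by group (x axis), with 1 point per array, a line at the group mean and a bar of 1 SD to each side; each panel has its own scale. CFB is at 8.22 or above in all Ctl-CMJ and WI-CMJ samples, and 1 cold-stored sample per group (7.95 or less for the other 4 at 6 h in CMJ) stands far above the rest.

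C3 (NM_214009), the component on which the starting pathways meet, had its highest group mean in WI-CMJ (7.87 ± 0.17, n = 5), without a call. The Ctl-CMJ samples read 7.38, 7.15, 7.21, 7.25 and 7.67 and the WI-CMJ samples 7.58, 7.94, 7.88, 7.93 and 8.03, so that 4 of 5 WI-CMJ samples lay above every control. The difference was 0.54 (SE 0.14, limma adjusted p = 0.0838), and that of WI-CMJ from WI-C 0.63 (SE 0.17, adjusted p = 0.0677). The first was called without Ctl-CMJ sample 5 (0.62, adjusted p = 0.0457), without WI-CMJ sample 1 (0.61, adjusted p = 0.0429) or with the deposited values (0.55, adjusted p = 0.0365), and the second without WI-C sample 3 (0.81, adjusted p = 0.00566) or without the cold-stored samples numbered 5 (0.63, adjusted p = 0.0447). The second was also called with quantiles within each group, the filter on dim identifiers or the kidney as a block. The 5 probes gave 0.50 to 0.59 for WI-CMJ versus Ctl-CMJ, and 1 of them was called. In the cold-stored CMJ samples the differences from control were 0.35 at 6 h (adjusted p = 0.212) and 0.25 at 24 h (adjusted p = 0.39), and in cortex the 5 probes differed from control by 0.16 to 0.31 in the cold-stored groups.

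C5 (NM_001001646), from which the terminal pathway starts, read 7.24 to 7.79 in Ctl-C and 7.03 to 7.44 in Ctl-CMJ. The WI+CS6h-C samples read 8.79, 8.26, 7.85, 7.40 and 9.33, and the WI+CS24h-CMJ samples 8.11, 8.44, 7.09, 7.37 and 8.89. Samples 1, 2 and 5 were above all controls of their tissue in each of the 4 cold-stored groups, and samples 3 and 4 were within or near the range of the controls. The mean differences from control at 6 h and 24 h were 0.83 and 0.69 for cortex, then 0.69 and 0.74 for CMJ (adjusted p = 0.127, 0.27, 0.235 and 0.179), which were not called. Without WI+CS6h-C sample 4 the first was 1.06 and called (adjusted p = 0.0292), and without the cold-stored samples numbered 5 the 4 differences were 0.58, 0.52, 0.52 and 0.51 (adjusted p 0.257 to 0.302). In WI-C and WI-CMJ, C5 differed from control by at most 0.19 on either probe.

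C1QA and C1QB, chains of C1q, which is the recognition part of the classical pathway and is made mainly by macrophages, were not called in any comparison within a tissue. C1QA (NM_001003924) read 9.57, 10.06, 9.75, 9.76 and 10 in WI-CMJ, 9.43, 9.69, 9.19, 9.24 and 9.23 in WI+CS6h-CMJ, and 9.42, 9.53, 9.49, 9.16 and 9.20 in WI+CS24h-CMJ. The 24 h samples lay below all WI-CMJ samples (2.23% of all identifiers did so) and the 6 h samples overlapped with them. Both differences were -0.47 (SE 0.15), with limma adjusted p of 0.0837 and 0.0853. C1QB (NM_001244283) differed by -0.36 (adjusted p = 0.275) and -0.47 (adjusted p = 0.133) in the same comparisons. The gene between them, C1QC, which encodes the third chain and is not among the 9 genes, differed by -0.47 (adjusted p = 0.0677) and -0.52, and the latter was called (adjusted p = 0.042). Without the cold-stored samples numbered 5, the C1QC difference at 24 h was -0.45 and not called (adjusted p = 0.0808). A second C1QB row, the expressed sequence tag CF175298, read between 4.08 and 4.96 on all arrays. Its cold-stored CMJ means (4.52 and 4.58) were above that of WI-CMJ (4.42), the opposite direction to NM_001244283, without a call (adjusted p = 0.611 and 0.375), although at 24 h all samples lay above all WI-CMJ samples (2.35% of all identifiers did so). Which of the rows reads C1QB better was not settled here.

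In the cortex, C1QA and C1QB had their largest SDs in WI-C (0.49 and 0.36), where C1QA samples 2 and 3 read 10.05 and 9.99 and samples 1 and 5 read 8.97 and 9.15. C1QA differed by 0.07 or less between cold-stored cortex and Ctl-C. C1S (NM_001005349), the protease of the C1 complex that cleaves C4 and C2, had mean levels between 8.23 and 8.65 in the 8 groups and 0 of its 12 differences within a tissue reached an unadjusted p under 0.05. The macrophage markers with an identifier, 4 of 8, were well above background on all arrays, and their summed signal ranged from 10.15 to 10.34 in WI-CMJ and from 10.14 to 10.95 in WI+CS24h-CMJ.

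**Figure D4:**
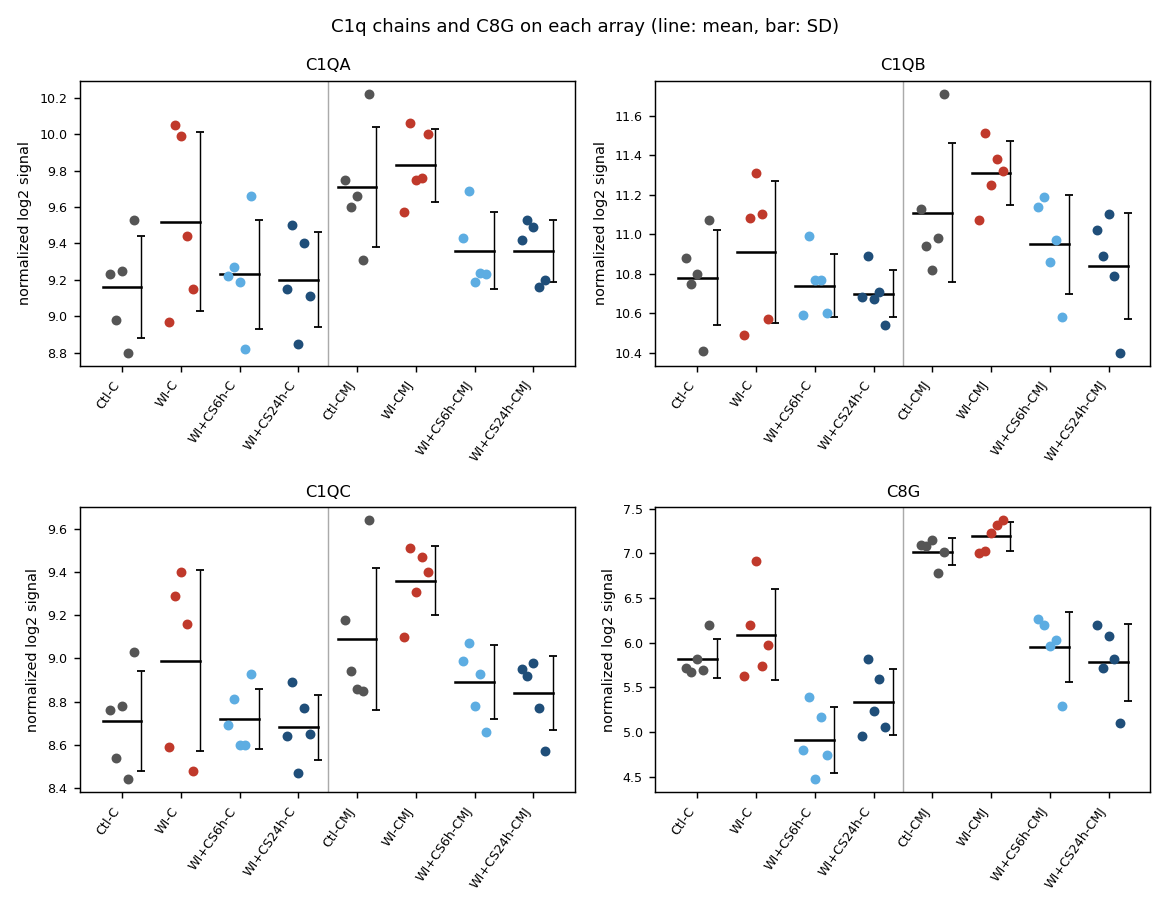
Normalized log2 signal (y axis) of the 3 C1q chains and of C8G on each array, by group (x axis), with 1 point per array, a line at the group mean and a bar of 1 SD to each side; each panel has its own scale. The C1q chains spread widely in WI-C, and C8G falls from means of 7.02 and 7.19 in Ctl-CMJ and WI-CMJ to 5.95 and 5.78 after cold storage.

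CD59, the membrane protein that blocks the terminal pore, was read by 2 identifiers that both had higher means in cold-stored cortex than in Ctl-C, without a call. For ENSSSCT00000026025 the Ctl-C samples read 9.95, 10.11, 10.07, 10.38 and 10.33, the WI+CS6h-C samples 10.98, 10.66, 10.59, 10.38 and 10.49, and the WI+CS24h-C samples 10.84, 10.85, 10.30, 10.67 and 10.58. For NM_214170 the Ctl-C samples read 4.89, 4.81, 4.77, 4.68 and 5.08, the WI+CS6h-C samples 6.35, 5.65, 5.36, 4.99 and 6.14, and the WI+CS24h-C samples 6.28, 6.09, 4.92, 5.57 and 5.89. On both identifiers all cold-stored samples were above the control mean, and the groups overlapped by 1 or more samples. The differences from Ctl-C were 0.45 (SE 0.13, limma adjusted p = 0.0515) and 0.48 (adjusted p = 0.0527) on the first and 0.85 (SE 0.25, adjusted p = 0.0595) and 0.90 (adjusted p = 0.0607) on the second, at 6 h and 24 h. None was called in these fits, while the 95% intervals of all 4 lay above 0, from 0.18 to 0.72 and 0.21 to 0.75 on the first and from 0.32 to 1.38 and 0.37 to 1.43 on the second. Several alternatives called them. NM_214170 was called at both times with the slide as a block (0.88, adjusted p = 0.0321, and 0.90, adjusted p = 0.0463) and with the filter on dim identifiers (adjusted p = 0.0401 and 0.0409), at 24 h with the share of spots above background as a covariate (adjusted p = 0.0468), and without WI+CS6h-C sample 4 (1.03, adjusted p = 0.015) or WI+CS24h-C sample 3 (1.11, adjusted p = 0.0136). ENSSSCT00000026025 was called at 6 h with quantiles within each group (0.55, adjusted p = 0.00812), with the deposited values (0.51, adjusted p = 0.0354) or without WI+CS6h-C sample 4 (0.51, adjusted p = 0.0252), and at 24 h without Ctl-C sample 5 (0.52, adjusted p = 0.0497) or WI+CS24h-C sample 3 (0.56, adjusted p = 0.0221).

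Between tissues, 32 of 36 pairs of a gene and a condition had a higher mean in CMJ than in cortex, as did 45.6% of all identifiers over the same 4 comparisons. CFB after warm ischemia was the 1 pair called and 10 of 36 had an unadjusted p under 0.05, against 6.71% of all identifiers. In WI-CMJ versus WI-C alone 6 of 9 did (7.18% of all identifiers). In Ctl-CMJ versus Ctl-C limma called 0 of 9 (0.312% of all identifiers), with 4 of 9 at an unadjusted p under 0.05 (6.09% of all identifiers), among them C1QA at 0.55 (adjusted p = 0.328) and the first CD59 identifier at 0.43 (adjusted p = 0.221). In the cold-stored groups 0 of 9 were called at 6 h (0.0807% of all identifiers) and at 24 h (0%), with 0 of 9 at an unadjusted p under 0.05 at either time (9.57% and 4% of all identifiers). These fits take the samples as unpaired. Deviations of cold-stored samples with the same number correlated across the tissues at 0.134 to 0.457 at 6 h and 0.145 to 0.482 at 24 h. The same number was the best match for 3 of 5 samples at 6 h and 2 of 5 at 24 h. With the number as a block in a fit of the 2 groups of one time, limma again called 0 of 9 at 6 h and 0 of 9 at 24 h (0% of all identifiers each), and 3 and 1 of 9 had an unadjusted p under 0.05 (7.45% and 4.3% of all identifiers). C3 was higher in CMJ in all 5 pairs at both times, by 0.31 (95% interval 0.1 to 0.51, adjusted p = 0.6) and 0.2 (0.04 to 0.36, adjusted p = 0.808). At 6 h C5 was lower in CMJ in all 5 pairs, with a difference of -0.39 (95% interval -0.71 to -0.07, adjusted p = 0.6), and CFB higher in 4 of 5 by 0.58 (0.14 to 1.03, adjusted p = 0.6). In the 5 tests of a difference between tissues in an effect of treatment, limma called 0 of 9 genes in each, as it called 0% of all identifiers, and 1, 0, 0, 1 and 2 of 9 genes had an unadjusted p under 0.05, against 1.98%, 5.17%, 2.58%, 4.96% and 1.86% of all identifiers.

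From 6 h to 24 h of storage, limma called 0 of 9 genes in cortex (0% of all identifiers) and in CMJ (0.00278%), and 0 of 9 had an unadjusted p under 0.05 (3.11% and 3.44% of all identifiers). The cortex differences of the 11 identifiers ranged from -0.16 to 0.14, and the CMJ ones from -0.11 to 0.21. Their 95% intervals reached from -1.1 to 0.94 and from -0.87 to 1.28 at the widest, so that a change of 2-fold in FCN2 lies within them. With the kidney as a block, which takes a number to mark the same kidney at both times, the lowest and highest interval ends of any identifier were -1.06 and 0.91 in cortex. In CMJ they were -0.55 and 0.96, and the counts of members were the same. The labels do not state this match of numbers. The same number was the best match between 6 h and 24 h for 2 of 5 samples in cortex and 5 of 5 in CMJ.

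Several members differed more between numbers of the cold-stored samples than between 6 h and 24 h. The means of the 5 numbers spanned 1.83 for CFB, 1.89 for FCN2, 1.48 for C5 and 1.03 for C1S, and the largest change from 6 h to 24 h within a number and tissue was 0.77, 1.26, 0.47 and 0.69. The 1.26 of FCN2 rests on WI+CS6h-C sample 5, where a spot was left out; with the spot kept that change was 0.09 and the largest one 0.53. Each of the 4 samples numbered 5 lay above the other 16 cold-stored samples for CFB (8.74 to 9.34 against 6.68 to 8.19), for C1S (8.88 to 9.07 against 7.80 to 8.67) and for FCN2 (7.30 to 8.57 against 5.32 to 7.14). The same samples stood apart for the macrophage markers AIF1 (10.48 to 10.59 against 9.59 to 9.86) and CD163 (7.53 to 7.68 against 6.42 to 7.16), for CD14 (6.46 to 7.15 against 4.87 to 6.02) and for the neutrophil marker S100A12 (10.51 to 11.20 against 2.17 to 6.30). MRC1, the other macrophage marker with an identifier, did not lie above the other 16 in all 4 samples. The C1q members did not stand apart in this way: over its 4 samples, number 5 had the lowest mean of the 5 numbers for C1QB (NM_001244283), 10.53 against 10.81 to 10.99, and a mean of 9.30 for C1QA, within the 9.15 to 9.50 of the others. The summed signal of the 4 of 6 neutrophil markers with an identifier ranged from 3.31 to 11.23 in WI+CS6h-CMJ and from 4.16 to 4.84 in WI-CMJ, and MPO was well above background on 0 arrays. In the samples numbered 5 this sum was nearly all S100A12, which alone read 11.20 in WI+CS6h-CMJ, so the sum is not a separate reading. The part of leukocytes in the high CFB, C1S and FCN2 values of these samples was not tested.

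Averaged over the 4 samples of a number, FCN2 and S100A12 put the 5 numbers in the same order, a match noticed after the values were seen. Within single groups the orders matched in WI+CS6h-C and differed in WI+CS24h-C, WI+CS6h-CMJ and WI+CS24h-CMJ. The means over the 4 samples of a number were 5.87, 6.18, 6.63, 6.84 and 7.76 for FCN2 and 2.55, 2.67, 4.64, 5.35 and 10.81 for S100A12, for numbers 2, 1, 3, 4 and 5. In the controls S100A12 read 2.38 to 3.73, a range that holds the means of numbers 1 and 2, so their order for S100A12 is not settled. The highest FCN2 value in the controls was 4.55, while the lowest in a cold-stored sample was 5.32. Without the samples numbered 5, the FCN2 differences from control were 2.17 and 2.35 in cortex (limma adjusted p = 0.00202 and 0.00112) and 2.21 and 2.52 in CMJ (adjusted p = 0.0229 and 0.0093), and all were called. C5 and the second CD59 identifier followed another division, in which samples 3 and 4 were low. C5 read 7.09 to 7.85 in them and 8.11 to 9.33 in samples 1, 2 and 5, and CD59 read 4.92 to 5.57 and 5.65 to 6.35. The plasma carrier TTR split the same way in the other direction, with 13.51 to 14.51 in samples 3 and 4 and 8.97 to 11.35 in samples 1, 2 and 5. This division was noticed after the values were seen and carries no test.

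**Figure D5:**
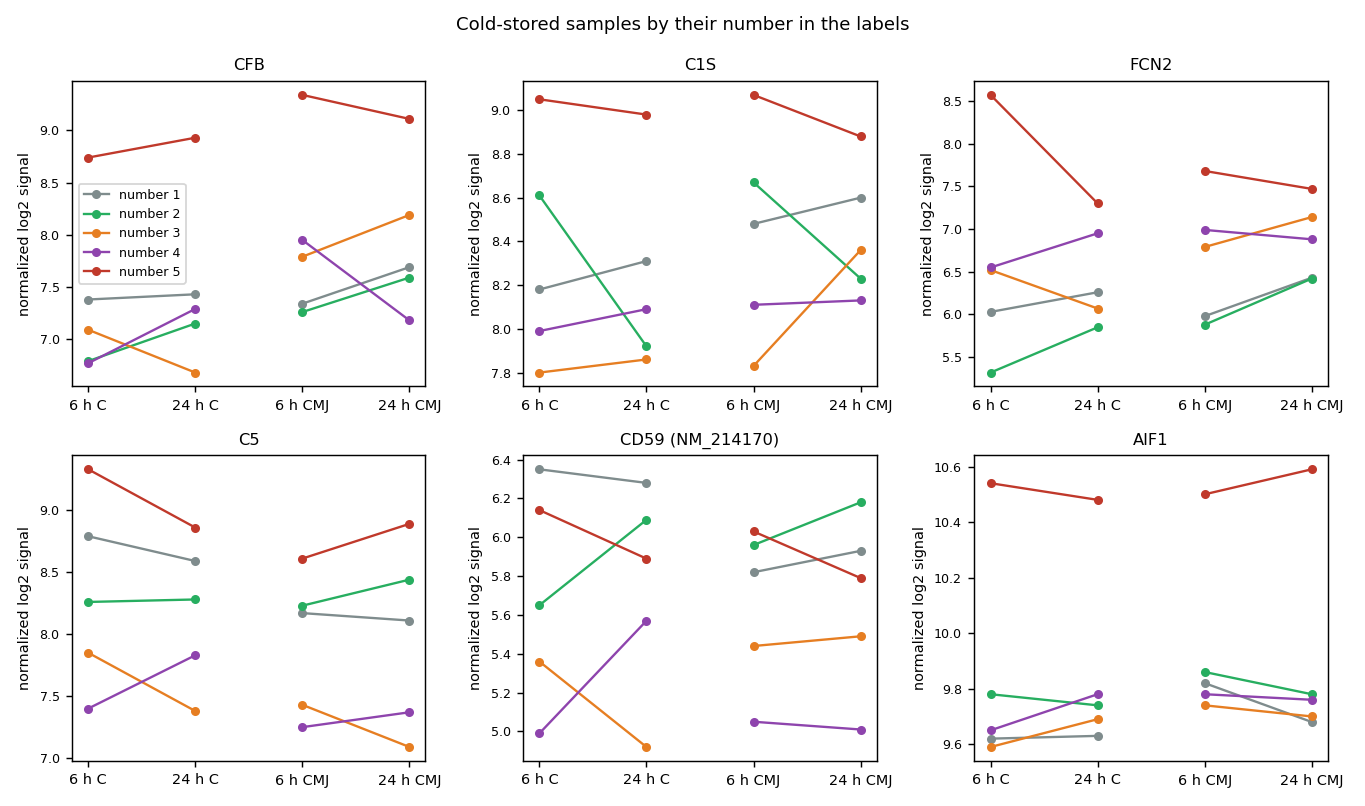
Normalized log2 signal (y axis) of CFB, C1S, FCN2, C5, CD59 (NM_214170) and the macrophage marker AIF1 in the 20 cold-stored samples; lines join the 6 h and 24 h samples of the same number in the labels within cortex (C) and within CMJ, and each panel has its own scale. Samples numbered 5 (red) are highest for CFB, C1S, FCN2 and AIF1, and for C5 and CD59 the samples numbered 3 and 4 (orange, purple) are low.

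Of a list of 54 complement genes, 39 had an identifier, 30 of them besides the 9 members. Over the 12 comparisons within a tissue, 11 of their differences were called, 1 higher and 10 lower, while 1.91% of all identifiers were called over the same comparisons. At most 3 of 30 were called in a comparison, which was so against WI-CMJ after 6 h (2.78% of all identifiers) and after 24 h (2.85%) of storage. The medians of the 30 genes lay between -0.15 and 0.07, and those of all identifiers between -0.01 and 0.05.

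C8G, the gamma chain of the terminal component C8, which belongs to the lipocalin family and is encoded apart from the alpha and beta chains, accounted for 6 of the 11. On NM_001097452, the Ctl-CMJ samples read 7.09, 7.08, 7.15, 6.78 and 7.02, the WI+CS6h-CMJ samples 6.26, 6.2, 5.96, 6.03 and 5.29, and the WI+CS24h-CMJ samples 6.2, 5.72, 6.08, 5.82 and 5.10, without overlap with the controls (3.28% and 3.23% of all identifiers lay below in this way). C8G fell by 1.08 (SE 0.19, limma adjusted p = 0.00261) and by 1.24 (adjusted p = 0.000752) against Ctl-CMJ, and by 1.24 (adjusted p = 0.000956) and 1.41 (adjusted p = 0.000391) against WI-CMJ. Its second identifier, AK233683, fell in the same 4 comparisons, by 0.94 to 1.31; with normexp background correction these differences were -0.23 to -0.31 and none was called. In cortex C8G (NM_001097452) fell at 6 h, by 0.91 against Ctl-C (adjusted p = 0.0322) and by 1.18 against WI-C (adjusted p = 0.0122), and at 24 h the differences were -0.49 (adjusted p = 0.308) and -0.76 (adjusted p = 0.131). On AK233683 the 6 h differences were -0.45 from Ctl-C (adjusted p = 0.218) and -0.83 from WI-C, the latter called (adjusted p = 0.0408) and not called under 8 of 16 alternatives, among them the omission of the samples numbered 5 (-0.81, adjusted p = 0.0771). On NM_001097452 the fall against WI-C was lost with normexp correction (-0.36), in a fit of the 2 groups alone (adjusted p = 0.108) and within each scan day (-1.11 and -1.22). With normexp background correction the C8G differences from Ctl-CMJ were -0.47 and -0.49, under the fold threshold (adjusted p = 0.000381 and 0.000208). The cortex call against Ctl-C was kept in the fits without WI+CS6h-C sample 2 or 4 and lost in the other 8 of 10 (adjusted p up to 0.0861). It was also lost without the cold-stored samples numbered 5 (-0.86, adjusted p = 0.0728), with normexp correction (-0.25, adjusted p = 0.0873), with the share of spots above background as a covariate (-0.74, adjusted p = 0.154) and within scan day 1 (-0.79) and day 2 (-0.99). C8G was higher in CMJ than in cortex in controls, by 1.21 (adjusted p = 0.00388), after warm ischemia, by 1.1 (adjusted p = 0.00686), and at 6 h, by 1.04 (adjusted p = 0.0443). The control call was lost with normexp correction (0.50, which did not reach the fold threshold before rounding) and within each scan day (1.31 and 1.13), and the WI call with normexp correction (0.47), within each scan day (1.03 and 1.21) and in a fit of the 2 groups alone (adjusted p = 0.0613). The call at 6 h was lost in 7 of 10 fits without 1 array (adjusted p up to 0.204), without the samples numbered 5 (1.15, adjusted p = 0.0536), with scan day as a term (adjusted p = 0.0513), with the share of spots above background as a covariate (0.93, adjusted p = 0.412), with normexp correction (0.28, adjusted p = 0.356), with the deposited values (0.66, adjusted p = 0.162), in a fit of its 2 groups alone (adjusted p = 0.759), with the number as a block in that fit (adjusted p = 0.6), and within scan day 1 (0.76) and day 2 (1.22).

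The other calls on the list fell on regulators and on a C1q chain in CMJ. Vitronectin (VTN, NM_214104), which keeps terminal complexes out of membranes, rose in WI-CMJ versus Ctl-CMJ by 0.60 (SE 0.10, limma adjusted p = 0.00905), where the WI-CMJ samples read 4.62, 4.76, 4.71, 4.87 and 5.02 and the controls 3.96 to 4.38, and it fell in WI+CS24h-CMJ versus WI-CMJ by 0.51 (adjusted p = 0.00738). Its second identifier, AK232690, had means between 3.55 and 3.99 in the 8 groups. At 6 h against WI-CMJ the C1 inhibitor SERPING1 fell by 0.57 (adjusted p = 0.0447), and properdin (CFP), which stabilises the alternative convertase, by 0.56 (adjusted p = 0.0168). An identifier of C4BPA, the alpha chain of the C4b-binding protein, AK238136, fell by 1.39 in WI+CS6h-CMJ versus Ctl-CMJ (SE 0.37, adjusted p = 0.0413), and was not called without the cold-stored samples numbered 5 (-1.42, adjusted p = 0.063). The identifier that represents the gene in the counts, NM_213942, differed by -0.95 (adjusted p = 0.0521). Against Ctl-CMJ, the WI-CMJ samples of NM_213942 were lower by 0.52 (adjusted p = 0.462), with no overlap of the groups (2.41% of all identifiers). Several of these calls were lost when 1 array was left out, in 10 fits each. SERPING1 kept its call in 2, without WI-CMJ sample 1 or WI+CS6h-CMJ sample 5, and lost it in 8 (adjusted p up to 0.12). C4BPA kept its call in 2, without WI+CS6h-CMJ sample 1 or 2, and lost it in 8 (adjusted p up to 0.085). C1QC kept its call in 1, without WI-CMJ sample 1 (adjusted p up to 0.0968 in the other 9). The fall of VTN came under the fold threshold in 4, without WI-CMJ sample 4 or 5 or WI+CS24h-CMJ sample 3 or 4. CFP lost its call in 1, without WI-CMJ sample 5 (adjusted p = 0.0512), and the rise of VTN in 0. Other processing also ended calls. The rise of VTN was 0.10 with normexp correction, 0.58 (adjusted p = 0.155) with the brightest probe and 0.27 with the deposited values, and its fall -0.08, -0.33 (adjusted p = 0.419) and -0.26, and -0.42 with quantiles within each group. CFP was at -0.45 with quantiles within each group, -0.34 with normexp correction and -0.47 with the deposited values, all under the fold threshold. SERPING1 was lost with the kidney as a block (-0.57, adjusted p = 0.0638), with scan day as a term (adjusted p = 0.0543), with the share of spots above background as a covariate (adjusted p = 0.0782), with the brightest probe (adjusted p = 0.0741), and with quantiles within each group (-0.46) and normexp correction (-0.41). C4BPA AK238136 was lost with that covariate (adjusted p = 0.0861) and in a fit of its 2 groups alone (adjusted p = 0.0767). C1QC was lost with these (adjusted p = 0.0618 and 0.0513) and with quantiles within each group (-0.43), normexp correction (-0.38) and the deposited values (-0.48). Within scan days none of these calls was made, except that of SERPING1 on day 2.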

How the data were processed

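RNA of 40 pig kidney biopsies was hybridised to single-colour 44k porcine arrays. The authors deposited scanner files of Agilent Feature Extraction 11.5.1.1 with intensity values and spot flags, which are scores of 0 or 1 in the deposited files, and a matrix of log2 values. That deposited log2 matrix equals, within 1e-08, quantile normalized log2 median signal without background subtraction for 99.98% of the values of 32153 identifiers with 1 spot. The submitters' processing notes name R 2.15.2 and limma.

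Here, the background-subtracted, detrended intensity that the authors' Feature Extraction deposited was taken as log2, outlier spots were left out, all arrays were quantile normalized and spots averaged per identifier (35955). limma 3.58.1 (R 4.3.3, statmod 1.5.0, data.table package 1.17.8) was fitted per tissue, over 35939 identifiers in cortex and 35938 in CMJ, and over all 40 arrays for tissue and interaction (35934). P-values were adjusted by Benjamini-Hochberg over all identifiers, and a call needed an adjusted p under 0.05 and a log2 difference of at least 0.5. Column groups came from the labels, and 0 columns of samples were unused. The scripts were tested on simulated data. The number of arrays, 5 a group, limits the precision.

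The members and lists were chosen with earlier results of these data known. Named were the 9 members with every identifier, each gene of the complement list called in at least 1 of 12 comparisons within a tissue, and for each member called there the 3 identifiers with a symbol most like it over 8 group means, among those well above background on at least 20 arrays. A gene with several identifiers was counted by the one of highest mean. C4BPA AK238136, ADIPOQ, COL1A2, S100A12, TTR and other markers outside this rule were named after their values were seen or as list markers. Alternatives were other scaling, normexp background correction (offset 50), the brightest probe, the deposited matrix, a filter on dim identifiers, blocks for replicate number and slide, scan day, the share of spots above background, 2-group fits and leaving out each array.

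The labels give every group numbers 1 to 5 without saying that a number marks a kidney across groups. Deviations of samples with the same number correlated between -0.21 and 0.077 in Ctl-CMJ and WI-CMJ, -0.18 and 0.162 in Ctl-C and WI-C, -0.311 and 0.363 in WI+CS6h-C and WI+CS24h-C, and 0.332 and 0.61 in WI+CS6h-CMJ and WI+CS24h-CMJ. Between the tissues they correlated between 0.134 and 0.457 at 6 h of storage and 0.145 and 0.482 at 24 h, and between -0.13 and 0.177 in the control and WI groups. The design had no replicate block in the main fits, and blocks were run as alternatives. One probe sequence is not reported here.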

Additional observations from a re-analysis of the deposited data

Results flagged for a closer look

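In 160 groups of 5 samples, from 20 identifiers of the members and of the complement genes named above, 4 had a sample far from the other 4, with a gap to its nearest neighbour that exceeded 0.71 of the group's whole range. Chance alone flags about 1 in 20 groups. Ctl-C sample 5 was the high one in 3 of them. For properdin (CFP) it read 8.46 against 7.72 for the next sample, a ratio of 0.866. For C4BPA (AK238136) it read 8.49 against 7.75, a ratio of 0.744, and for C8G (NM_001097452) 6.2 against 5.82, a ratio of 0.72. The other was vitronectin (VTN, AK232690), where WI+CS6h-CMJ sample 3 was low, at 3.55 against 3.91, a ratio of 0.739.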

How the results depend on the processing

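Of the member calls, the 6 FCN2 rises stayed in the same direction under each alternative, but 3 of the 4 in cortex were no longer called with normexp background correction, WI+CS6h-C versus WI-C was not called in a fit of its 2 groups alone (adjusted p = 0.0648), and within a scan day only the 2 CMJ rises on day 2 were called. Counts of calls moved over all identifiers too: pooled over the 6 comparisons of cortex, 1.62% were called, and 3.8% with quantiles within each group, 0.899% with the deposited values, 0.882% in 2-group fits, 0.333% with normexp correction, 0.11% within scan day 1 and 0.0102% within scan day 2. For CMJ the share was 2.19%, and 3.28%, 0.974%, 1.4%, 0.322%, 0.0232% and 1.26% in the same order (2.48% without the samples numbered 5), and between tissues 0.266%, and 1.69%, 0.178%, 0.252%, 0.0995%, 0.00487% and 0.0981% (0.358%). The count of members called in cortex was 4; it was 6 with quantiles within each group and 5 with the deposited values, with CD59 added, 3 in 2-group fits, 1 with normexp correction, and 0 within scan day 1 and 0 within scan day 2, and leaving out 1 array gave 4 to 6. In CMJ it was 3. It was 4 with the brightest probe (2.23% of all identifiers), the deposited values, the filter on dim identifiers (3.92%), the slide block (2.78%) and scan day as a term (2.28%). It was 2 with quantiles within each group, with the share of spots above background (1.71%) and in 2-group fits. It was 7 without the cold-stored samples numbered 5 and 0 within scan day 1. Leaving out 1 array gave 2 (without WI-CMJ sample 3) to 4. Between tissues it was 1. It was 4 with quantiles within each group and 4 with the filter on dim identifiers (0.438% of all identifiers). It was 2 with normexp correction, the brightest probe (0.276%), the deposited values, the slide block (0.288%), the share of spots above background (0.266%), outlier spots kept (0.266%) and in 2-group fits. It was 5 without the samples numbered 5, and 0 within scan day 1 and 0 within scan day 2. Leaving out 1 array gave 0 (as without WI-C sample 1) to 3 (without WI-C sample 3). No interaction of tissue and treatment was called for a member by limma under any alternative run, 0 to 0 when 1 array was left out. FCN2 in WI+CS6h-CMJ versus WI-CMJ reversed within scan day 2, to -0.07 from 1.13. The cause of these changes was not tested.

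With the replicate number as a block, tissue calls were 3, adding FCN2 (adjusted p = 0.0367) and CFD (adjusted p = 0.0417) after warm ischemia. The share of all identifiers was 0.31%, against 0.266% in the main fit. The block correlation over both tissues was 0.035 (-0.017 in cortex and 0.039 in CMJ). Pairing the 6 h and 24 h samples of 1 number as 1 kidney (correlation 0.108 over both tissues, 0.047 in cortex and 0.475 in CMJ) gave 5 (0.419% of all identifiers), with C3 (adjusted p = 0.0219) and control CFB (adjusted p = 0.0249) also called. Neither block changed a call of a member within a tissue; the kidney block ended that of SERPING1 (-0.57, adjusted p = 0.0638). Calls of complement list genes, 11 in all (1.91% of all identifiers over the 12 comparisons), were 4 with normexp correction (0.328%), 7 with the deposited values (0.937%), 0 within scan day 1 (0.0668%) and 5 within scan day 2 (0.633%), and 7 (without WI-CMJ sample 5) to 15 (without WI-CMJ sample 1) when 1 array was left out. Over all results and settings other than leaving out an array, 1090 of 1245 values kept their direction and call, 112 lost and 42 gained a call, and 1 reversed. These include differences that were not called in the main fit. Of the called member differences alone, 21 of 128 values lost their call under those settings, and 13 of 80 when 1 array was left out. The kidney block, the block by number between cold-stored tissues, single-probe fits, kept outlier spots and the omission of the samples numbered 5 were chosen after seeing the data. Dim probes limit FCN2 in the controls, where 1 probe was not well above background on some arrays.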
